A study of Mus musculus with 6 samples.

Results

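The proton pump and the ion channels of endosomes and lysosomes were followed in the cerebellum of mice without Tmem106b. The 29 genes were taken by symbol from a table of 43346 genes, and each of them matched 1 row. They were 8 genes of the membrane sector of the vacuolar proton ATPase (V-ATPase), 9 of its cytosolic sector, 2 accessory proteins of the pump, 5 genes of chloride-proton exchange and 5 of cation channels and exchange. RNA came from 3 wild-type mice (WT, Tmem106b+/+) and 3 knockout mice (KO, Tmem106b-/-), all 15 months old, with 1 female (replicate 1) and 2 males in each genotype and no treatment. The replicate numbers follow the order of deposit. The RNA integrity number was 10 in all 6 libraries. The labels name neither the strain nor how the allele was made, and nothing in them names a Cre driver.

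TMEM106B sits in the membrane of late endosomes and lysosomes and has been reported to bind ATP6AP1, an accessory subunit of the V-ATPase. The V-ATPase uses ATP to drive protons into the organelle. Its V1 sector in the cytosol hydrolyses ATP and turns a rotor, and its V0 sector in the membrane carries the protons. Chloride-proton exchangers and cation channels balance the charge that the pump moves, and cation channels such as TRPML1 also release calcium from lysosomes. Neurons use the same pump to fill synaptic vesicles.

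Many genes of this pump carry an E-box of the kind that the lysosomal transcription factors TFEB and TFE3 bind, and the promoters below are shown for that reason. RefSeq promoter windows of the GRCm38.p6 build, 300 bases long and reaching from 250 bases before a gene's start to 50 after it, were found for 22 of the 29 genes. The hexamer CACGTG, which reads the same on both strands, was present for 7 of these 22 (31.8%), against 8.09% of 27025 gene symbols in the table. All 7 also held the longer TCACGTG on at least 1 strand, against 4.29% of all symbols. The longer word contains the shorter one, so these are not separate counts. All symbols were counted, whether or not the gene is expressed in cerebellum, so the shares are not matched for expression. Capitals mark CACGTG, and each stretch runs 5′ to 3′ on the strand of its gene, with 12 bases to each side.
Atp6v0b (chr4:117887330-117887377, minus strand): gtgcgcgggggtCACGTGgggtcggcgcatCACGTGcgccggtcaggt
Atp6v0d1 (chr8:105566050-105566079, minus strand): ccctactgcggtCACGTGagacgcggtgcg
Atp6v0e (chr17:26676387-26676416, plus strand): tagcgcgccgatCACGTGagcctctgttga
Atp6v1a (chr16:44139373-44139402, minus strand): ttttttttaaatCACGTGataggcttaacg
Clcn6 (chr4:148038821-148038873, minus strand): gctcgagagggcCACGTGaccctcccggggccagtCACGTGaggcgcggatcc
Clcn7 (chr17:25133364-25133415, plus strand): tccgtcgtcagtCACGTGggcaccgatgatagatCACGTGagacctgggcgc
Mcoln1 (chr8:3500436-3500491, plus strand): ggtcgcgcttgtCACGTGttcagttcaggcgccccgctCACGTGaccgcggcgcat

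In 4 of the 7 windows (Atp6v0b, Clcn6, Clcn7 and Mcoln1) the hexamer stood 2 times. The first base of the hexamer lay 131 bases before the start in Atp6v1a, 71 and 45 before it in Mcoln1, and 4 after it in Atp6v0e, counting the start as base 1. A match of these letters is a description of the sequence and was not tested as a binding site.

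RNA of the pump and channels differed little between the genotypes, and no member was called. The threshold was a p under 0.05 in the quasi-likelihood test of edgeR after Benjamini-Hochberg adjustment over 16934 genes. Of the 29 members 0 passed it, where 0.283% of all genes tested passed. At an unadjusted p under 0.05 in edgeR there were 3 members, all with a higher KO mean (Atp6v0e, Clcn5 and Tpcn2), where 8.96% of all genes tested were past it 4.71% higher and 4.25% lower. DESeq2 and limma-voom also called 0 members. The median log2 fold change (KO over WT) of the 29 was -0.03, against 0.00029 for all genes tested, and the members ran from -0.18 to 0.32. The groups did not overlap in 4 of the 29 (13.8%), all of them higher in KO, against 7.77% of all genes higher, 6.35% lower and 14.1% in either direction. The estimate was below 0 in 21 of 29 members (72.4%) and in 49.9% of all genes. In males only it was below 0 in 14 members and in 48.4% of all genes. The counts were 14 without KO replicate 1 and 13 without WT replicate 1, which is nearly the same comparison. In such a fit the sex term takes up the remaining female, so the genotype contrast comes from the males.

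All 29 members passed the filter on low counts, so no member is missing from these counts. The intervals of the fit show how small a change the data leave room for. In 22 of the 29 genes the 95% interval of the log2 fold change lay inside a 1.25-fold change in either direction, and in 27 inside a 1.5-fold change. The 2 outside the wider bound were Atp6v0c and Tpcn2. These intervals hold per gene and are not adjusted for the number of genes.

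**Figure D1:**
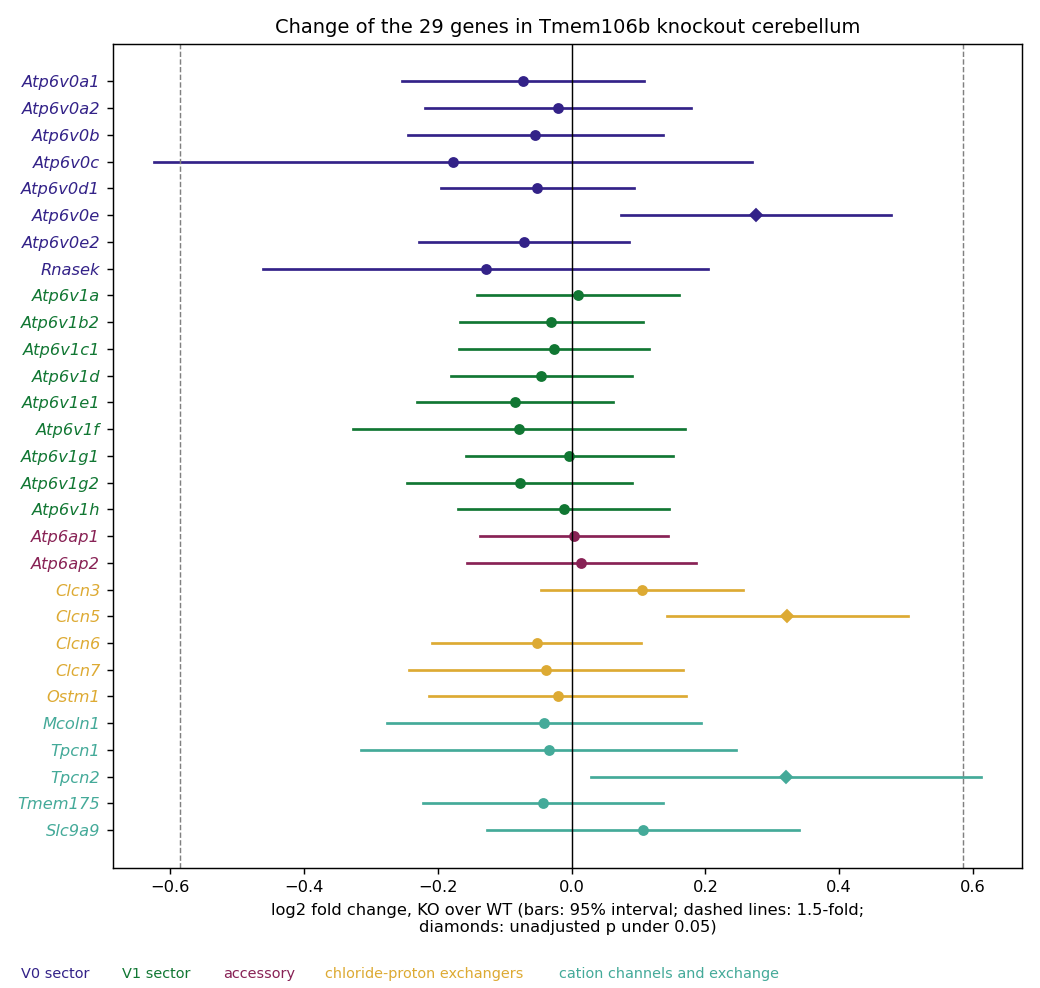
Log2 fold change of each of the 29 genes in KO over WT cerebellum from edgeR (points, n = 3 mice per genotype) with its 95% interval (bars). Most intervals span 0, those of Atp6v0e, Clcn5 and Tpcn2 lie above it, and the widest belong to Atp6v0c and Rnasek among the V0 genes and to Tpcn1 and Tpcn2 among the channels.

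Levels are compared between genes as RPKM, the normalised CPM (counts scaled to a common library size) divided by the kilobases of gene length in the deposited table. In WT most pump genes were among the abundant RNAs of the cerebellum. Atp6v0e2 stood at 215 ± 8.08, Atp6ap1 at 145 ± 5.73 and Atp6v1b2 at 129 ± 5.39 RPKM (SD, n = 3 each), above at least 98.4% of the genes tested. The pump genes Atp6v1h at 16.6, Atp6v0a2 at 15.3 and Atp6v0e at 9.21 RPKM were lower and lay within the range of the channels and exchangers. That range ran from 2.51 ± 0.07 RPKM for Slc9a9 to 22.1 ± 0.60 for Clcn6 and 19.1 ± 1.18 for Mcoln1, where the median gene stood at 5.71. In all, 15 of the 29 genes lay above 90% of the genes tested. The order depends on the length given to a gene: in 10 members the exons of GENCODE M21 cover more than 1.1 times the deposited length. Atp6v1e1 ranked first at 315 RPKM but stands at 92.2 with the M21 length, in rank 8.

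**Figure D2:**
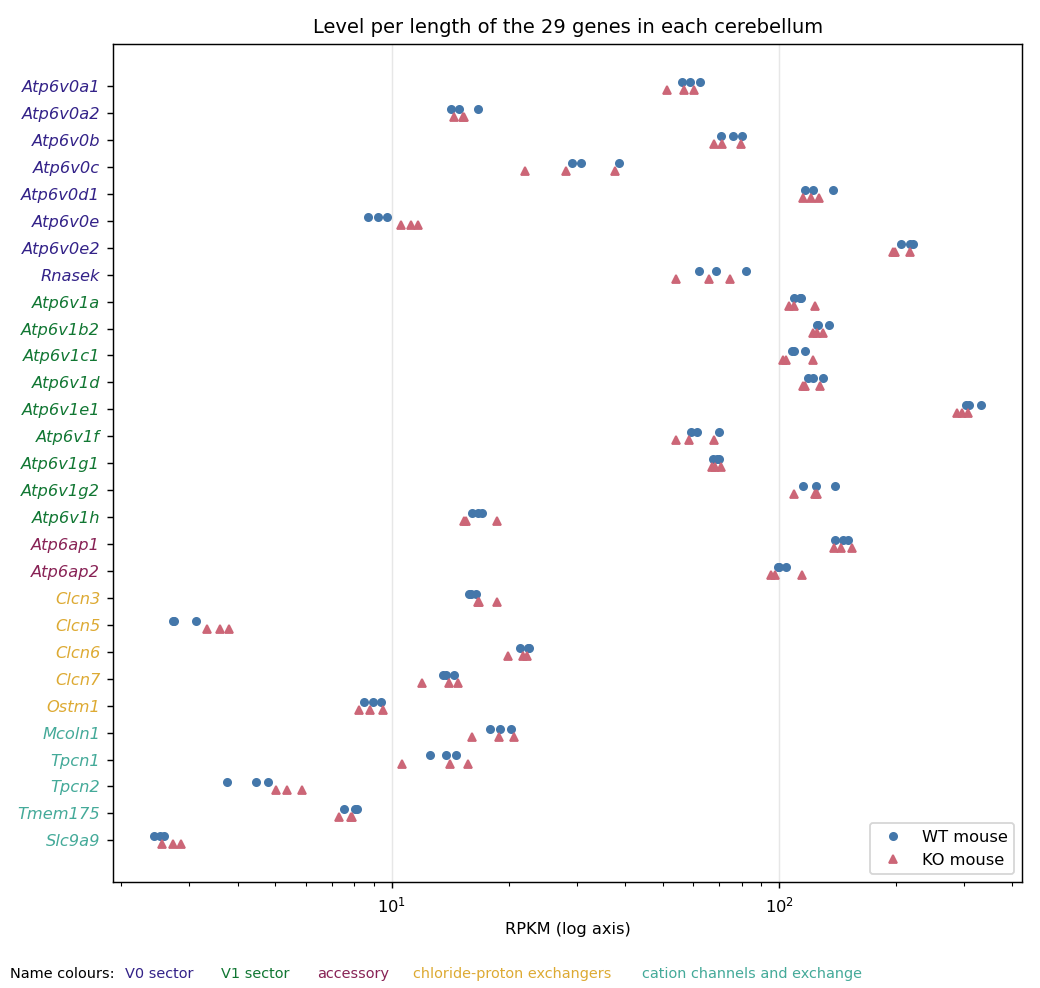
Level of each gene in each mouse in RPKM on a log axis, WT as circles and KO as triangles, ordered and coloured by role. The circles and triangles of most genes lie over each other, while those of Atp6v0e, Clcn5, Tpcn2 and Clcn3 do not overlap.

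In the V0 sector, 7 of 8 genes had a log2 fold change below 0 and none passed. The 7 became 2 in males only, and also when replicate 1 of either genotype was left out, which leaves the contrast to the males. Atp6v0a1 encodes the a subunit that neurons use most, which holds the proton paths. Its CPM, given here and for all genes in the order of replicates 1, 2 and 3, were 409, 385 and 368 in WT and 337, 373 and 396 in KO. The lowest value was the KO female's and the groups overlapped, and the log2 fold change was -0.07 (SE 0.08, edgeR adjusted p = 0.835). Atp6v0a2, the a subunit of the Golgi apparatus, was at -0.02 (SE 0.09) and Atp6v0b, a proteolipid of the rotor ring, at -0.05 (SE 0.08). Atp6v0d1, which couples the ring to the central stalk, was at -0.05 (SE 0.06).

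Atp6v0c, the main proteolipid of the ring, varied most among the members. Its values were 131, 98.7 and 104 CPM in WT and 74.6, 95.5 and 127 CPM in KO. The lowest and the second highest of the 6 libraries were both KO mice, and the groups overlapped. The log2 fold change was -0.18 (SE 0.19, 95% interval -0.62 to 0.27, edgeR adjusted p = 0.835). In males only it was 0.12. It was nearly the same without KO replicate 1 (0.12) or WT replicate 1 (0.13), since these fits also take the contrast from the males. Rnasek, a small membrane protein that associates with the pump, showed the same order of mice within KO, with 72.6, 55.0 and 60.7 CPM in WT and 47.9, 58.5 and 66.0 in KO (-0.13, SE 0.14). In GENCODE M21 its exons share 599 bases with Gm21988 on the same strand, a gene with 131.5% of its counts. How reads were assigned between both models is not known here.

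Atp6v0e was the V0 gene with the lowest unadjusted p. It encodes the e1 form of the small e subunit. It had 30.0, 28.4 and 31.7 CPM in WT and 36.5, 38.1 and 34.4 in KO, so that every KO mouse lay above every WT mouse. The log2 fold change was 0.28 (SE 0.09, 95% interval 0.07 to 0.48, unadjusted p = 0.0133, adjusted p = 0.363 in edgeR). Atp6v0e2, the e2 form, is the more abundant one in brain and was at 405, 399 and 377 CPM in WT and 365, 361 and 398 in KO (-0.07, SE 0.07, edgeR adjusted p = 0.815).

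The 9 genes of the V1 sector lay within a narrower range, from -0.08 to 0.01 on the log2 scale, with 0 past the threshold and 0 at an unadjusted p under 0.05 in edgeR. Atp6v1a, the catalytic A subunit, stood at 689, 682 and 661 CPM in WT and 749, 642 and 660 in KO. Atp6v1b2, the B subunit that shares the nucleotide sites, stood at 715, 668 and 664 CPM in WT and 687, 651 and 666 in KO. In both genes the genotypes overlapped, and the log2 fold changes were 0.01 (SE 0.07) for Atp6v1a and -0.03 (SE 0.06) for Atp6v1b2. The rotor genes Atp6v1d and Atp6v1f were at -0.05 (SE 0.06) and -0.08 (SE 0.11). Of the stator genes, Atp6v1e1 was at -0.08 (SE 0.06), Atp6v1g1 at -0.00382 (SE 0.07) and Atp6v1g2 at -0.08 (SE 0.07). Atp6v1c1, whose protein leaves the pump when the sectors come apart, was at -0.03 (SE 0.06), and Atp6v1h, a regulator of ATP hydrolysis, at -0.01 (SE 0.07). Adjusted p-values of the 9 in edgeR were 0.765 or higher.

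Atp6ap1 encodes the accessory subunit that TMEM106B has been reported to bind. It had 455, 421 and 443 CPM in WT and 467, 420 and 436 in KO. The groups overlapped, and the log2 fold change was 0.00334 (SE 0.06, 95% interval -0.14 to 0.14, edgeR adjusted p = 0.991). Atp6ap2, the prorenin receptor, had 261, 259 and 273 CPM in WT and 300, 255 and 249 in KO, with a log2 fold change of 0.01 (SE 0.07). In the same libraries Tmem106b went from 245 ± 19.4 CPM in WT to 66.8 ± 3.64 in KO (SD, n = 3 each), which leaves 27.2% of the WT level.

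The mean proportion of V1 to V0 RNA was nearly the same in both genotypes, but the KO mice lay on both sides of all WT mice. The mean log2 RPKM of the V1 genes exceeded that of the V0 genes by 0.87, 0.95 and 0.91 in WT and by 1.08, 0.85 and 0.81 in KO. KO replicate 1 was the highest and the other 2 KO mice the lowest. The genotype means differed by 0.00058, less than the SD of 0.04 in WT and of 0.15 in KO. Without KO replicate 1 the difference was -0.08.

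Of the chloride-proton exchangers, Clcn5 had the lowest unadjusted p of all 29 members. It encodes ClC-5, an exchanger of early endosomes that is mutated in Dent disease of the kidney. Its level per length was low in WT, at 2.86 ± 0.23 RPKM (SD, n = 3). The gene had 35.8, 31.1 and 31.4 CPM in WT and 43.4, 41.2 and 38.2 in KO. All 3 KO mice lay above all 3 WT mice. The log2 fold change was 0.32 (SE 0.08, 95% interval 0.14 to 0.50), with an unadjusted p of 0.00314 and an adjusted p of 0.204 in edgeR. The adjusted p of Clcn5 ran from 0.0712 in DESeq2 to 0.854 without KO replicate 2 over 15 alternatives.

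Clcn3, the exchanger of late endosomes and synaptic vesicles, had 271, 281 and 274 CPM in WT and 319, 284 and 286 in KO. The genotypes did not overlap, though KO replicates 2 and 3 lay close to the highest WT mouse (log2 fold change 0.11, SE 0.07, edgeR adjusted p = 0.709). The value for Clcn3 was 0.03 in males only. It was 0.03 without KO replicate 1 and 0.04 without WT replicate 1, fits that also take the contrast from the males. Clcn6, a neuronal exchanger of late endosomes, was at -0.05 (SE 0.07). Clcn7, the exchanger of lysosomes, was at 76.7, 72.8 and 71.9 CPM in WT and 63.2, 74.4 and 78.5 in KO, which set KO mice below and above all WT mice (-0.04, SE 0.09). Ostm1, which encodes the obligate partner of ClC-7, was at -0.02 (SE 0.08), and the 95% intervals of both genes lay inside a 1.25-fold change.

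Among the cation channels, Tpcn2 had an unadjusted p under 0.05 and Tpcn1 did not. Both encode channels of the TPC family in the endosomal and lysosomal membrane. Tpcn2 had 12.9, 10.9 and 13.9 CPM in WT and 14.6, 17.0 and 15.6 in KO, with all KO mice above all WT mice. The log2 fold change was 0.32 (SE 0.13, 95% interval 0.03 to 0.61, unadjusted p = 0.0349, adjusted p = 0.509 in edgeR). Without WT replicate 2 it was 0.21 (unadjusted p = 0.146), and without KO replicate 2 the unadjusted p in edgeR was 0.127. Tpcn1 had 64.2, 68.1 and 58.3 CPM in WT and 49.4, 65.5 and 73.1 in KO. Here KO held both the lowest and the highest mouse (-0.03, SE 0.12). Mcoln1, the gene of the calcium channel TRPML1 that is lost in mucolipidosis type IV, had 66.2, 58.5 and 61.8 CPM in WT and 52.6, 61.7 and 67.5 in KO, with the same spread (-0.04, SE 0.10).

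Tmem175 encodes a lysosomal potassium and proton channel linked to Parkinson's disease risk. It had 29.2, 31.2 and 31.5 CPM in WT and 28.2, 30.5 and 30.4 in KO (-0.04, SE 0.08). In GENCODE M21, which gives Tmem175 5928 exon bases against 3875 deposited, its exons share 2090 bases with those of Dgkq on the opposite strand. The counts of Dgkq were 282.5% of those of Tmem175. Without a known strand setting and annotation, reads of shared bases cannot be told apart. Slc9a9, the sodium-proton exchanger of recycling endosomes, was the least abundant member per deposited length. It had 14.3, 14.7 and 13.8 CPM in WT and 14.4, 15.5 and 16.2 in KO (0.11, SE 0.10). With M21 exon lengths Tpcn2 was lower in WT, at 2.395 RPKM against 2.513 for Slc9a9.

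**Figure D3:**
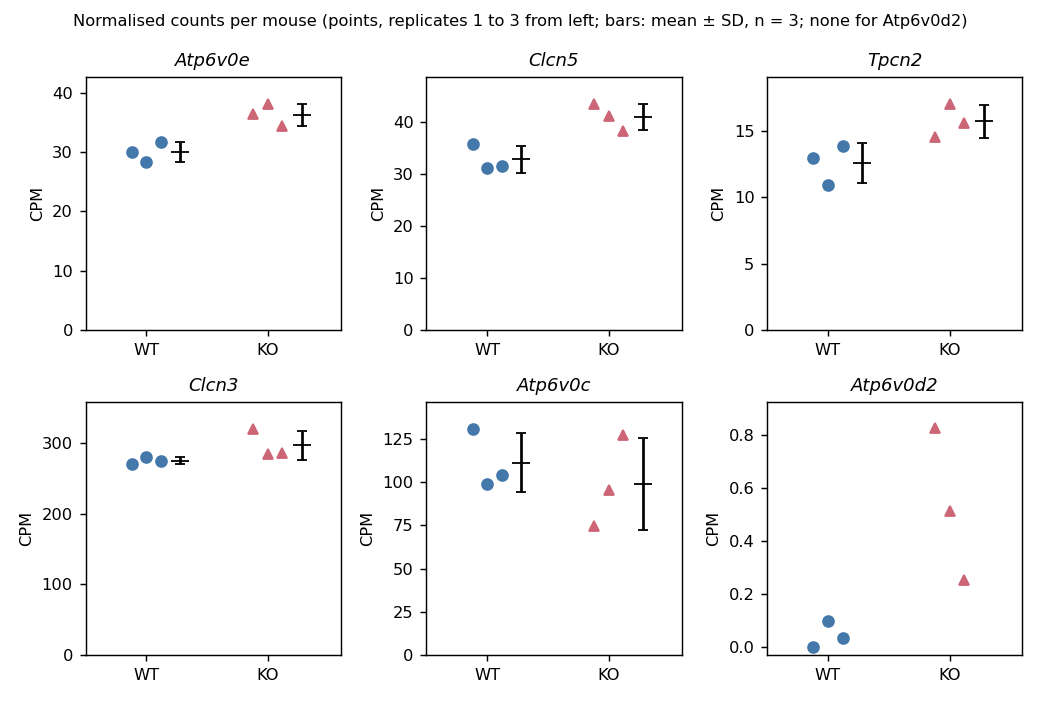
Normalised counts (CPM) in each mouse for 5 members and for Atp6v0d2, a d subunit paralog outside the 29 genes, with mean ± SD (n = 3) except for Atp6v0d2. KO mice lie above WT mice in Atp6v0e, Clcn5, Tpcn2, Clcn3 and Atp6v0d2 and spread around them in Atp6v0c.

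Markers of other cells moved between the same libraries. The summed level of 12 microglial markers was 258 to 316 CPM in WT and 402 to 471 in KO, and 2 of the 12 passed, both higher, with a list median of 0.63 on the log2 scale. The summed level of 10 Purkinje cell markers, the defining neurons of this tissue, was 10502 to 11439 CPM in WT and 6992 to 8070 in KO, and 4 of the 10 passed, all lower (median -0.47). In bulk tissue fewer cells of a type and less RNA per cell cannot be told apart. Of 8 granule cell markers and 7 oligodendrocyte markers 0 passed in edgeR. At an unadjusted p under 0.05 in edgeR there were 3 granule cell markers, all higher in KO, and 0 oligodendrocyte markers. The estimate was above 0 in 7 of the 8 granule cell markers and below 0 in 6 of the 7 oligodendrocyte markers. Of 7 markers of astrocytes and Bergmann glia 1 passed (Gfap, higher), while 5 of the 7 were below 0. At an unadjusted p under 0.05 in edgeR 1 was higher and 2 were lower (Slc1a3 at -0.24 and Hopx at -0.23). The sum of the 7 was 3411 to 3638 CPM in WT and 3251 to 3501 in KO. Summed choroid plexus markers were 289, 6737 and 4514 CPM in WT and 2681, 7214 and 2289 in KO, with 0 of 8 passed. WT replicate 1, the WT female, was far below all other mice. Red blood cell markers ran from 71.8 to 88.5 CPM in WT and from 77.2 to 157 in KO, with 0 of 5 passed. All 5 were above 0, and 3 had an unadjusted p under 0.05 in edgeR. None of the listed markers was at 0 in any library. The part of these cells in the values of Atp6v0e, Clcn5 and Tpcn2 was not tested.

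Several subunits are made from more than 1 gene, and the share of each family's RPKM that its main gene takes is free of library scaling. Atp6v0a1 took 77.0, 78.3 and 76.3% of the a subunit RNA in WT and 75.7, 76.3 and 77.3% in KO, with Atp6v0a2, Tcirg1 and Atp6v0a4 as the rest. With the longer M21 exons of Atp6v0a2 the WT share was 86.8%. Atp6v0e2 took 96.0, 96.2 and 95.5% of the e subunit RNA in WT and 94.7, 94.4 and 95.4% in KO. Every KO share was below every WT share, by 1.07 percentage points in the mean (exact two-sided permutation p = 0.1, the smallest that 3 against 3 mice allow, and 0.45 adjusted over 9 families). That family holds Atp6v0e, whose own values are given above.

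Atp6v1g2, the neuronal G subunit, took 66.7, 63.1 and 64.2% of the G subunit RNA in WT and 64.7, 62.0 and 63.7% in KO (exact permutation p = 0.5, adjusted 0.75). Tpcn1 took 75.7, 79.6 and 72.4% of the TPC channel RNA in WT and 68.0, 70.7 and 74.6% in KO (exact permutation p = 0.2, adjusted 0.45). The groups overlapped in both families. Atp6v1b2, Atp6v1c1 and Atp6v1e1 each took over 99.9% of their families in every mouse. Atp6v0d1 took 99.99 ± 0.016% of d subunit RNA in WT and 99.84 ± 0.081% in KO (SD, n = 3 each), and Mcoln1 took 99.6 ± 0.42 and 99.1 ± 0.44% of mucolipin RNA. The d subunit shares did not overlap either (exact permutation p = 0.1, adjusted 0.45). They restate the low counts of Atp6v0d2, the only other gene of that family, so this p is no support for a difference.

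**Figure D4:**
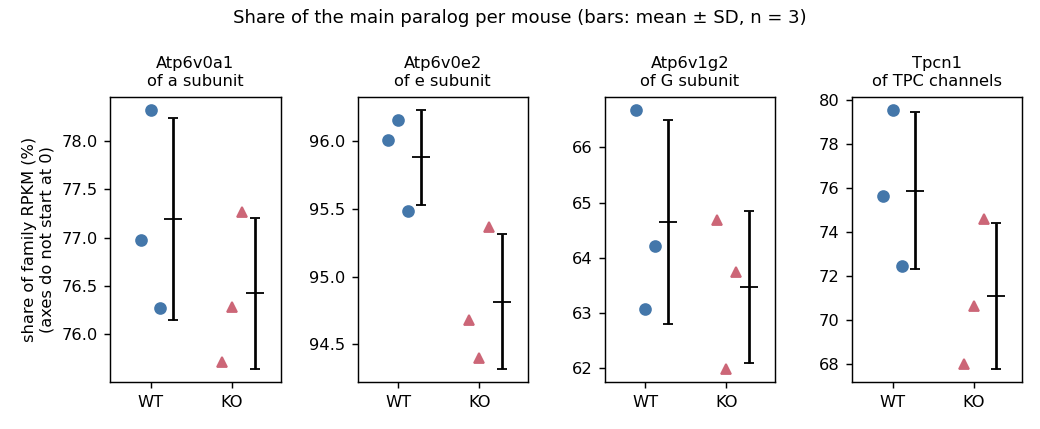
Share (%) of a family's RPKM taken by its main gene in each mouse, for the a, e and G subunits and the TPC channels, with mean ± SD (n = 3). The axes do not start at 0; the shares of the e subunit do not overlap between genotypes, and those of the other 3 families do.

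The minor d subunit, Atp6v0d2, is the form known from osteoclasts and macrophages, and it was singled out after its values were seen. It had 0, 3 and 1 counts in WT and 21, 15 and 7 in KO, too few for the filter of the test. Each KO mouse lay above each WT mouse. Summed over mice, 43 counts against 4 gave a KO to WT ratio of 11.8 (exact 95% interval 4.28 to 45.2 for counting error only, which leaves out the spread between mice). Since the gene was chosen for these counts, they are given as a description with no test of their own, and the d subunit share above restates them. The microglial marker sums of the same mice are given above, and their part in this value was not tested. Mcoln3, a mucolipin that was also under the filter, had 1, 10 and 2 counts in WT and 11, 23 and 4 in KO, and these overlap.

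Of 55 further entries listed for the pathway, 53 were in the table and 45 were tested, with 0 past the threshold in edgeR. At an unadjusted p under 0.05 in edgeR 1 was higher and 3 were lower, DESeq2 called 1 and limma-voom 0, and the median was 0.00355. The groups did not overlap in 5 of the 45 (11.1%), all lower in KO, against 6.35% of all genes lower and 7.77% higher. Kcnma1, the gene of the BK potassium channel that acts at the plasma membrane of Purkinje cells and also in lysosomes, came closest to the threshold. It had 71.3, 72.4 and 64.8 CPM in WT and 46.2, 47.9 and 50.6 in KO, with no overlap. The log2 fold change was -0.53 (SE 0.08, edgeR adjusted p = 0.0504), and it passed in 11 of 15 alternatives (adjusted p 2.13e-05 to 0.278). Kcnma1 overlaps the RNA gene A830039N20Rik, which had 165.6% of its counts, and the Purkinje markers above were lower in the same mice, which was not tested as a part of it. Trpm2, another cation channel, was at -0.33 (SE 0.11, edgeR adjusted p = 0.379), with the KO mice below the WT mice. But it was at -0.17 without WT replicate 1 and at -0.18 without KO replicate 1, where both fits take the contrast from the males. Among other exchangers, Slc9a5 was at -0.19 (SE 0.09) and Slc9a7 at -0.14 (SE 0.09), again without overlap. For Slc9a5 the highest KO and the lowest WT mouse were nearly equal. Leaving out WT replicate 1 gave -0.07 and leaving out KO replicate 1 gave -0.08, both from the males.

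Of the other V-ATPase isoforms, Atp6ap1l, a gene related to Atp6ap1, was at -0.55 (SE 0.14, edgeR adjusted p = 0.238), with 12.1, 8.89 and 10.9 CPM in WT and 9.80, 6.08 and 6.30 in KO. The highest KO mouse lay above the lowest WT mouse. Tcirg1, the a3 subunit of osteoclasts and immune cells, was at -0.07 (SE 0.14) and Atp6v0a4, the a4 subunit of the kidney, at 0.32 (SE 0.25, 0.15 to 0.57 over the alternatives). In GENCODE M21, Atp6v0a4 shares exon bases with D630045J12Rik on the same strand, which had far more counts. Assembly and regulation genes had a median of 0.02 over 15 tested. Those with the lowest p were Wdr7 and Dmxl2, the subunits of the rabconnectin-3 complex, at -0.14 (SE 0.06) and 0.12 (SE 0.07), Dmxl1 at 0.09 (SE 0.07) and Tbc1d24 at 0.09 (SE 0.07). Wdr7 had 169.9, 168.9 and 158.5 CPM in WT and 152.3, 145.5 and 152.2 in KO, without overlap (edgeR adjusted p = 0.558). Over the 15 alternatives its log2 fold change ran from -0.17 to -0.12. Without KO replicate 1, Dmxl2 was at 0.04 and Dmxl1 at 0.00036.

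Of 4 lysosomal transcription factors tested, 0 passed in edgeR and 1 (Zkscan3) had an unadjusted p under 0.05. Tfeb was at -0.08 (SE 0.19), Tfe3 at 0.06 (SE 0.09) and Mitf at 0.08 (SE 0.13). Zkscan3, described as a repressor of such genes, was at 0.29 (SE 0.11, edgeR adjusted p = 0.498). It was at 0.16 without replicate 1 of either genotype, which takes the contrast from the males, and at 0.43 without KO replicate 3. The 7 pump and channel genes with CACGTG in the promoter window had a median log2 fold change of -0.04, from -0.05 to 0.28, and the 15 with a window but without it had a median of -0.04, from -0.18 to 0.32. Of the 13 genes of Ragulator and Rag signalling, which senses amino acids on the lysosome beside the V-ATPase, 0 passed and 0 had an unadjusted p under 0.05 in edgeR. Those with the lowest p were Fnip2 at 0.15 (SE 0.08), Fnip1 at 0.15 (SE 0.09), Slc38a9 at 0.14 (SE 0.09) and Lamtor2 at -0.19 (SE 0.13). Without KO replicate 1, Fnip1 was at 0.05 and Lamtor2 at -0.04.

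Some libraries stood apart from the others over the members, along with GC content. KO replicate 1, the KO female, had the lowest value of all 6 libraries in 10 of the 29 genes, of median GC content 53.2%, and the highest in 8, of median GC content 44.5%. WT replicate 1, the WT female, had the highest value in 12 genes. KO replicate 2 was lowest in 11 genes, of median GC content 50.3%, which is more than in KO replicate 1. The deviation of a member in KO replicate 1 from its mean over the 6 libraries fell off with the GC content of its transcript, with a correlation of -0.72 over the 29 genes and of -0.50 over 16771 genes. In KO replicate 3 the correlations were 0.64 and 0.29, and in WT replicate 1 they were 0.45 and 0.19. These correlations describe genes of 1 library, which are not independent replicates. The spread of the members within a genotype had a median coefficient of variation of 4.79% in WT and 7.10% in KO, and was greater in KO in 21 of 29 genes (72.4%). Over all genes tested the medians were 7.91 and 11.2%, and 62.6% had the greater spread in KO. After GC content and length trends were removed from each library, 0 members passed in edgeR and the same count of 3 had an unadjusted p under 0.05.

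**Figure D5:**
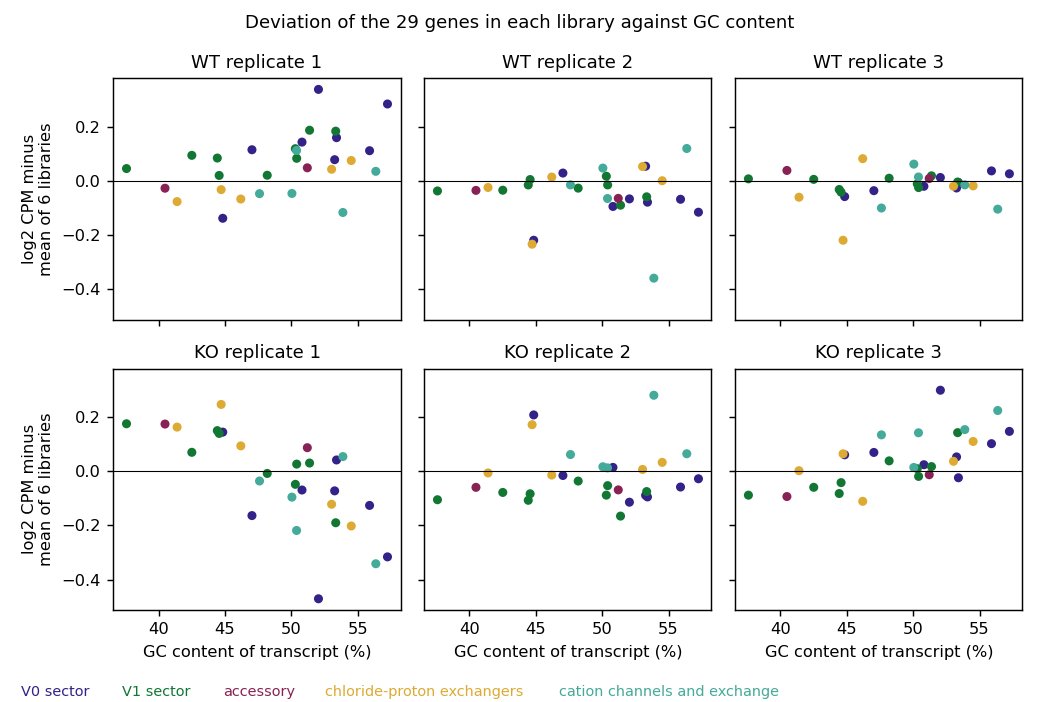
Deviation of log2 CPM of each of the 29 genes from its mean over 6 libraries against the GC content of its longest transcript, 1 panel per library, with colours for the roles. In KO replicate 1 the points slope down (correlation -0.72), and in KO replicate 3 (0.64) and WT replicate 1 (0.45) they slope up.

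The members lie on 14 chromosomes. Atp6v1f, Atp6v0e2 and Atp6v1e1 share chromosome 6 with Tmem106b, at 16.4, 35.4 and 107.7 Mb from it in the mm10 build, and their log2 fold changes were -0.08, -0.07 and -0.08. Clcn5 lies on chromosome X at 7153810 to 7319358, Atp6v0e on chromosome 17 at 26676396 to 26699644 and Tpcn2 on chromosome 7 at 145253923 to 145283927, so the 3 genes with the lowest unadjusted p are not neighbours.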

How the data were processed

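Cerebellar RNA of 6 mice was sequenced. Raw read counts per gene and library stand in a single table deposited by the authors, which also holds gene coordinates and lengths. The submitters' processing notes name STAR and the mm10 build. Not given in the sources used here are the counting tool, the strand setting and the annotation. Library totals were 25245778 to 31135185 counts. Sampling limits low genes such as Atp6v0d2, and the spread between mice (biological coefficient of variation 11.2%) limits abundant ones.

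Counts were fitted for all genes in R 4.3.3 with edgeR 4.0.16: filterByExpr on genotype (minimum count 10, minimum total 15), TMM, sex and genotype as terms, glmQLFit (robust, legacy) and the two-sided quasi-likelihood F test with Benjamini-Hochberg adjustment at 0.05. The prior count for fold changes was 0.125. Each SE was taken as the size of the fold change over the square root of F, and the intervals follow from it and the degrees of freedom of the test. CPM are TMM-scaled, and RPKM divide them by the deposited length. The steps were tested on simulated counts.

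As alternatives, the fit was repeated in DESeq2 1.42.0, in limma-voom (limma 3.58.1) and with the newer quasi-likelihood method. It was also repeated with RLE size factors, unfiltered, filtered at a mean of 1 CPM, leaving out the sex term, the females or each library in turn, and with offsets for GC content and length (loess, span 0.5; GC content from GENCODE M21 for 16771 of the genes). When either female is left out, the sex term takes up the other. These fits and the males-only fit therefore rest on nearly the same genotype contrast. M21 exon lengths were added after seeing the data. The members, lists and tests were chosen with earlier results of these data known. All members are named, and of the other pathway genes up to 4 per role with the lowest p. P-values measure the spread between these mice.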

Additional observations from a re-analysis of the deposited data

How the results depend on the processing

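No member passed the threshold in any of 15 alternatives (lowest adjusted p 0.0712, Clcn5 in DESeq2), and 1 to 4 members had an unadjusted p under 0.05. The males-only fit and those without replicate 1 of either genotype hold nearly the same contrast, so the 15 are not all separate. Without WT replicate 2 or KO replicate 2 that count was 1. The median of the members ran from -0.05 to 0.01. Over the 15 alternatives 12 members kept 1 sign, 5 of them above 0 and 7 below, and the sign of 17 changed in at least 1, always without a call. Tmem106b passed in all 15. Of all genes tested 48 passed, and 1 (without WT replicate 2 or 3) to 271 (GC and length offsets) did in the alternatives. The number of other pathway genes past the threshold was 0 in the main analysis. It was 1 (Kcnma1) with RLE size factors, with a mean of at least 1 CPM, in DESeq2, with the newer quasi-likelihood version, with no sex term and in males only, and 0 in limma-voom. It was 2 with no filter on low counts (Kcnma1 and Atp6v0d2) and 2 with GC and length offsets (Kcnma1 and Atp6ap1l). Leaving out single libraries it ran from 0 to 2, at 1 when replicate 1 of either genotype was left out and at 2 without KO replicate 3. The causes were not tested. Where the filter was used, Atp6v0d2 can pass it only through its KO counts. Where it was not used, the call rests on WT counts of 0, 3 and 1. The gene was also singled out after its values were seen, so its calls support nothing. Without WT replicate 2 or KO replicate 2, Atp6v0e and Tpcn2 lost an unadjusted p under 0.05. No paired analysis was possible because replicate numbers follow the order of deposit and pair no mice. Some titles share a code across genotypes, which the labels do not explain and which was not used.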
